A study of Mus musculus with 2 samples.

Results

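Ligands, receptors and targets of the Notch pathway were followed through glial and neuronal cells traced from the boundary cap gene *Egr2*. The set holds 10 of the 33207 counted genes, chosen by symbol: the ligands *Dll1*, *Dll3*, *Dll4* and *Jag1*, the receptors *Notch1* and *Notch2*, and *Hes1*, *Hes5*, *Hes6* and *Hey1*. All 10 were found in both libraries and are annotated as protein-coding. Their raw counts were compared between cells with *Sox10*, cells with *Neurog1* and cells with *Isl1*, within each stage.

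Tomato-positive cells were isolated by FACS from the meninges, DRGs and spinal roots of mouse embryos carrying *Egr2*Cre/+ (*Krox20*-Cre) and the *Rosa26* Tomato reporter. Cre driven by *Egr2*, a boundary cap gene, marks a cell and all of its later progeny, so the traced cells include glia and neurons that no longer express the driver. Embryos of E11.5 gave 1 10x 3′ library and embryos of E12.5 another, each from 1 pooled litter, so that stage, litter and library cannot be told apart and no test between groups is possible. The *Prss56*-Cre embryos, which carry the same reporter, were not analysed here.

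Notch signalling passes between touching cells. A Delta or Jagged ligand on one cell binds a Notch receptor on its neighbour, the receptor is cut by ADAM proteases and gamma-secretase, and its intracellular part joins RBPJ and Mastermind proteins in the nucleus to switch on *Hes* and *Hey* genes, whose products repress proneural genes. Proneural factors such as Neurog1, which drives sensory neurogenesis in cranial and dorsal root ganglia, raise Delta ligands in turn, and this exchange is known to hold some cells of a ganglion as progenitors or glia while others become neurons.

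Cells were sorted into exclusive classes by raw UMIs (unique molecular identifiers, which mark single captured mRNA molecules). *Sox10*+ glia had a UMI of *Sox10* and none of *Neurog1* or *Isl1*, and numbered 343 and 1126 at the earlier and the later stage. *Neurog1*+ progenitors had *Neurog1* without *Isl1* (77 and 142 cells), and most of them, 70 and 87, also held *Sox10*. *Neurog1*+*Isl1*+ cells held both genes (204 and 502 cells). *Isl1*+ neurons had *Isl1* without *Neurog1* or *Sox10* (64 and 922 cells). A further 39 and 199 cells with *Sox10* and *Isl1*, and 106 and 605 cells with none of the 3 genes, stayed outside the classes. All 8 markers of a glial list were found in the glia, where they summed to 3172 and 5664 CPM (UMIs of a gene per 1000000 UMIs of the class), against 469 and 328 CPM in the neurons. All 9 markers of a neuronal list were found in the neurons, at 10454 and 11711 CPM against 214 and 238 CPM in the glia. Each list holds the gene of the gate, *Sox10* or *Isl1*. The progenitors were close to the glia by the glial list, at 2986 and 5614 CPM, and held the neuronal list at 407 and 927 CPM. Of 7 neurogenic progenitor genes, *Neurog1* among them, 2 or more were found in 34 of 77 and 66 of 142 progenitors. In *Neurog1*+*Isl1*+ cells this held for 194 of 204 and 488 of 502.

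The E11.5 library gave 833 cells with a median of 11601 UMIs after filtering and the E12.5 library 3496 cells with a median of 6140, and 9 barcodes occurred in both. Median depth of the 4 classes ran from 10322 to 13309 UMIs at E11.5 and from 5924.5 to 6555 at E12.5. Shares of cells are therefore given after each cell was thinned to 2000 UMIs. Intervals in parentheses are 95% exact Poisson intervals for CPM, exact binomial intervals for shares and exact conditional intervals for ratios. They cover counting error only, since cells of 1 library are not replicates. Cells of other types, of any class, served as a comparison for free RNA. Whether their counts are free RNA or their own expression was not tested. Of 183 cells of E12.5 with 3 or more mesenchymal markers (median 5947 UMIs), 175 were deep enough to thin. These held *Hes5* in 0%, *Dll1* in 0.571%, *Dll3* in 1.14%, *Hey1* in 1.71% and *Hes6* in 9.14% of cells. In 34 thinned cells with 3 or more myeloid markers (median 8759.5 UMIs), *Hes6* was found in 8.82% and *Dll1*, *Dll3*, *Hes5* and *Hey1* in 0%. The gate genes *Sox10*, *Isl1* and *Neurog1* were found in 4.57%, 4.57% and 0.571% of the thinned mesenchymal-marker cells. Before thinning, as the gates use the counts, these shares were 9.84%, 8.74% and 1.09%, and *Isl1* was found in 11.1% of 36 myeloid-marker cells. Of the 1126 glia of E12.5, 135 held 2 or more markers of pericytes, endothelium, mesenchyme or myeloid cells.

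The promoters of *Hes5* and *Hes6* are shown because the levels of these 2 genes ran opposite ways from progenitors to *Neurog1*+*Isl1*+ cells. From glia to progenitors both were higher. The windows are RefSeq sequences on GRCm38.p6, from 250 bases before to 50 after a start site, written 5′ to 3′ along the strand of the gene. Capitals mark GTGGGAA, the core of the RBPJ binding motif, or its reverse complement TTCCCAC. The *Hes5* window lies at chr4:154960673-154960972 (+ strand), and the *Hes6* windows at chr1:91413989-91414288 and chr1:91413173-91413472 (− strand).
Hes5: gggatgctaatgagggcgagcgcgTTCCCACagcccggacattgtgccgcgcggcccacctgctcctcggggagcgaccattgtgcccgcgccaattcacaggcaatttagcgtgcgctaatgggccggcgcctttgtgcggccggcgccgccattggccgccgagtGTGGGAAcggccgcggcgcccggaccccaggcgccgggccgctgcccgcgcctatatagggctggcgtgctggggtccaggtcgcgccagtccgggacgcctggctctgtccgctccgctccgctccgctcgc
Hes6, window 1: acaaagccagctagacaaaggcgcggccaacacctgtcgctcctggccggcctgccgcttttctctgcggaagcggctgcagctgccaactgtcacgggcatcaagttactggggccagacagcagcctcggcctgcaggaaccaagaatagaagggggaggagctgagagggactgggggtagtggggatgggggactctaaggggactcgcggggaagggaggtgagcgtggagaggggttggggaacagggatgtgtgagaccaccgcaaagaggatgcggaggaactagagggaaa
Hes6, window 2: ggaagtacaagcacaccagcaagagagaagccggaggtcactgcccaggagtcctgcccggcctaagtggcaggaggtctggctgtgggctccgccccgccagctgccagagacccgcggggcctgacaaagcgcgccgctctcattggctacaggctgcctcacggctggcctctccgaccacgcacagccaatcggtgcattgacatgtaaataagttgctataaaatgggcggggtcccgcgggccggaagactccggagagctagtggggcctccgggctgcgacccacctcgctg

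The *Hes5* window held the RBPJ core at bases 25 to 31, on the opposite strand, and at bases 168 to 174, which start 226 and 83 bases before the start site. Among all 32851 windows of this length, 6.38% held the core on either strand and 0.256% held it 2 or more times. The letters CAGATG, an E-box of the kind that proneural factors bind, were searched on both strands as well and occur in 17.2% of all windows. The table holds 10 windows for 8 of the members, all but *Hes1* and *Hey1*, and besides *Hes5* no member window held either motif. A match is a description of the sequence and not evidence of binding.

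The ligand *Dll1* had its highest levels in the *Neurog1*-positive classes. *Dll1* (ENSMUSG00000014773; chromosome 17 of GRCm39, 15587276 to 15597134) encodes Delta-like 1, a ligand that activates Notch on neighbouring cells. At E11.5 it stood at 2.67 (1.33–4.78) CPM in glia, 27.2 (17.9–39.6) in progenitors, 49.6 (41.4–59.1) in *Neurog1*+*Isl1*+ cells and 13.3 (6.07–25.2) in neurons. At E12.5 the same classes held 0.561 (0.153–1.44), 19.9 (12.1–30.7), 37.4 (31.2–44.4) and 5.76 (4.03–7.97) CPM. The order of the classes was thus the same at both stages, with the peak in cells that held *Neurog1* and *Isl1* together. Neurons were 3.74-fold (1.91–8.37) lower than *Neurog1*+*Isl1*+ cells at E11.5 and 6.49-fold (4.46–9.67) lower at E12.5. Neighbours in this order had intervals that did not overlap, except progenitors and neurons at E11.5. *Dll1* was 10.2-fold (4.89–22.7) higher in progenitors than in glia at E11.5, on 27 against 11 UMIs, and 35.4-fold (11.8–142) higher at E12.5, on 20 against 4 UMIs. A single progenitor of E11.5 gave 7 of the 27 UMIs, and the level without it was 20.5 CPM. The thinned share of *Dll1*+ cells was 4.90% (2.38–8.83) and 6.30% (4.32–8.82) in *Neurog1*+*Isl1*+ cells (unthinned 27.9% and 18.1%). In glia it was 1.17% and 0.0917%. The E12.5 value lay below the 0.571% (0.0145–3.14) of mesenchymal-marker cells, which comes from 1 cell. Glial *Dll1* of E12.5 was thus not told apart from the level in those cells.

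*Dll3* (ENSMUSG00000003436; chromosome 7, 27992978 to 28001673), a divergent Delta protein known to act inside the cell that makes it and not as an activating ligand, was highest in both *Isl1*-positive classes. At E11.5 it stood at 0.243 (0.00615–1.35) CPM in glia, 3.02 (0.623–8.83) in progenitors, 17.6 (12.8–23.5) in *Neurog1*+*Isl1*+ cells and 14.7 (7.07–27.1) in neurons. At E12.5 these levels were 1.26 (0.578–2.40), 3.97 (1.08–10.2), 17.5 (13.4–22.5) and 17.1 (14.03–20.7) CPM. Unlike *Dll1*, it did not differ beyond counting error between neurons and *Neurog1*+*Isl1*+ cells, where the ratios were 0.838 (0.377–1.69) and 0.976 (0.706–1.36). In neurons of E12.5 it was 13.6-fold (6.88–30.4) higher than in glia, whose thinned share of 0.367% lay below that of the mesenchymal-marker cells. The thinned share was 4.41% and 3.86% in *Neurog1*+*Isl1*+ cells, and 3.05% (2.02–4.40) in neurons of E12.5 against 1.14% (0.139–4.07) in mesenchymal-marker cells, whose interval overlaps it.

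*Jag1* (ENSMUSG00000027276; chromosome 2, 136923373 to 136958693), which encodes the ligand Jagged 1, was spread over all classes. Its levels at E11.5 were 24.3 (19.8–29.6) CPM in glia, 24.2 (15.5–36.0) in progenitors, 45.3 (37.5–54.4) in *Neurog1*+*Isl1*+ cells and 56.0 (39.6–76.9) in neurons. At E12.5 they were 47.6 (42.6–52.9), 36.7 (25.9–50.6), 63.2 (55.2–72.2) and 82.1 (75.1–89.5) CPM. Neurons were highest and progenitors lowest at both stages, although glia and progenitors overlapped, as did neurons and *Neurog1*+*Isl1*+ cells at E11.5. The neuron level was 2.30-fold (1.54–3.38) that of glia at E11.5 and 1.73-fold (1.501–1.98) at E12.5.

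*Dll4* (ENSMUSG00000027314; chromosome 2, 119156170 to 119166443), a Delta ligand of blood vessel endothelium, had 0 UMIs in each of the 4 classes at both stages. With 0 of 343 and 0 of 1126 glia the 95% interval reaches up to 1.07% and 0.327% of cells with a UMI, and with 0 of 64 and 0 of 922 neurons up to 5.60% and 0.399%. A count of 0, at 3 counts of the number of cells, allows 0.875% and 0.266% of glia and 4.69% and 0.325% of neurons. Both limit the cells with a UMI and not the cells that express the gene. Outside the classes, 3 cells held it. One cell of E11.5 had 8 *Dll4* UMIs and UMIs of 6 of 6 endothelial markers, and the other 2 cells had 1 *Dll4* UMI each and none of these markers.

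**Figure D1:**
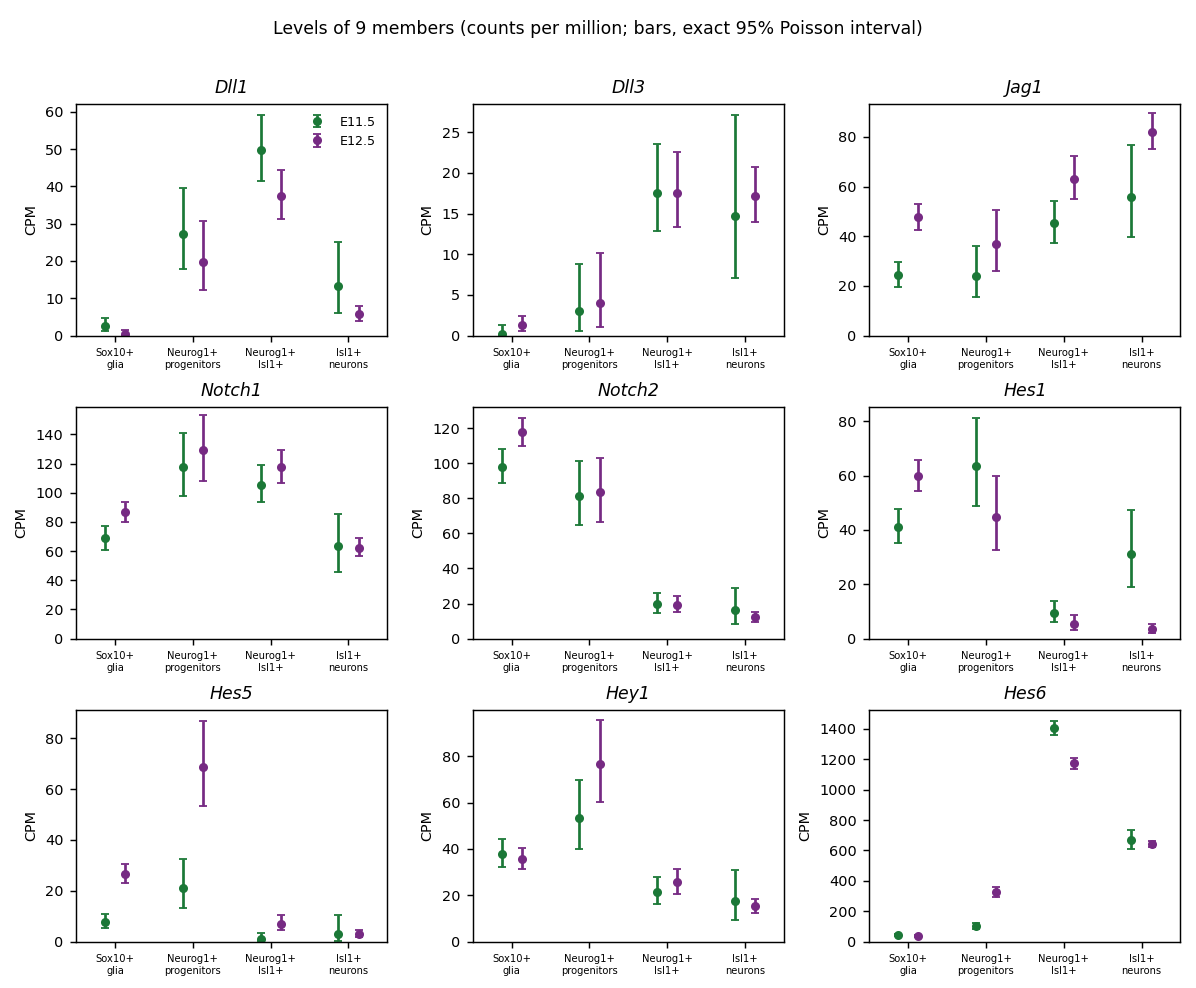
Levels of 9 members in *Sox10*+ glia, *Neurog1*+ progenitors, *Neurog1*+*Isl1*+ cells and *Isl1*+ neurons, in CPM of the class (vertical axes, each from 0), at E11.5 (green) and E12.5 (purple), with exact 95% Poisson intervals as bars. *Dll1* and *Hes6* peak in *Neurog1*+*Isl1*+ cells (*Hes6* at 1406 and 1174 CPM), *Notch2* is high in glia and progenitors, and *Hes5* is highest in progenitors (21.2 and 68.5 CPM). *Dll4*, at 0 in every class, is left out.

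The receptors differed in how far they reached into the neuronal classes. *Notch1* (ENSMUSG00000026923; chromosome 2, 26347915 to 26406675) was present throughout, at 68.8 (61.0–77.3) CPM in glia, 118 (97.5–141) in progenitors, 106 (93.3–119) in *Neurog1*+*Isl1*+ cells and 63.4 (45.9–85.4) in neurons of E11.5. At E12.5 it stood at 86.7 (80.0–93.8), 129 (108–153), 118 (106–129.5) and 62.4 (56.4–68.9) CPM. The *Neurog1*-positive classes were highest at both stages and overlapped each other. The progenitor level was 1.71-fold (1.37–2.13) and 1.49-fold (1.22–1.80) that of glia. *Notch2* (ENSMUSG00000027878; chromosome 3, 97920800 to 98057677) was high in glia and progenitors and low in *Neurog1*+*Isl1*+ cells and neurons. It stood at 97.9 (88.6–108) CPM in glia, 81.6 (64.8–101.4) in progenitors, 19.5 (14.5–25.8) in *Neurog1*+*Isl1*+ cells and 16.2 (8.09–29.0) in neurons at E11.5. At E12.5 these levels were 118 (110.0–126), 83.4 (66.5–103), 19.3 (14.9–24.5) and 12.2 (9.58–15.2) CPM. The step lay between progenitors and *Neurog1*+*Isl1*+ cells, which were 4.18-fold (2.90–6.06) and 4.33-fold (3.10–6.06) lower than progenitors. Neurons were 6.04-fold (3.34–12.2) and 9.70-fold (7.66–12.4) lower than glia. The thinned share of *Notch2*+ cells was 18.1% and 19.1% in glia, 3.43% and 3.66% in *Neurog1*+*Isl1*+ cells and 3.05% in E12.5 neurons. The cells with *Sox10* and *Isl1*, which the gates leave outside the classes, held *Notch2* at 49.2 (30.5–75.2) and 80.9 (67.0–96.8) CPM. The low level thus holds for *Isl1*+ neurons gated without *Sox10*. Mesenchymal-marker cells also held *Notch2*, in 25.7% (19.4–32.9) of thinned cells.

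The targets *Hes1*, *Hes5* and *Hey1* were lower in *Neurog1*+*Isl1*+ cells and neurons than in progenitors, while *Hes6* was higher. In cells with *Sox10* and *Isl1*, outside the classes, *Hes1* stood at 37.5 (21.4–60.9) and 31.9 (23.5–42.5) CPM. There *Hes5* stood at 4.69 (0.567–16.9) and 22.4 (15.4–31.5) CPM and *Hey1* at 32.8 (17.9–55.0) and 42.8 (32.9–54.8) CPM. *Hes6* stood at 230 (186–280) and 411 (379–445) CPM in them. *Hes5* (ENSMUSG00000048001; chromosome 4, 155045373 to 155046828) encodes a repressor of proneural genes and is one of the targets most directly tied to Notch. It stood at 7.78 (5.32–10.98) CPM in glia, 21.2 (13.1–32.3) in progenitors, 1.17 (0.242–3.43) in *Neurog1*+*Isl1*+ cells and 2.95 (0.357–10.6) in neurons of E11.5. At E12.5 the levels were 26.5 (22.9–30.6), 68.5 (53.3–86.7), 6.90 (4.42–10.3) and 2.88 (1.71–4.55) CPM. The progenitors were highest at both stages, 2.72-fold (1.49–4.87) and 2.58-fold (1.93–3.42) above the glia. The thinned share of *Hes5*+ cells was 3.90% (0.811–10.97) and 6.47% (3.003–11.9) in progenitors (unthinned 16.9% and 19.7%). It was 1.75% (0.645–3.77) and 4.13% (3.03–5.49) in glia and 0.564% in E12.5 neurons. At equal depth the shares of progenitors and glia thus overlapped at both stages, and that of E11.5 progenitors came from 3 cells. At E12.5, 16 of the 69 UMIs of the progenitors came from 1 cell, and the level without it was 53.4 CPM. The neurons of E12.5 were 23.8-fold (14.001–42.5) lower than the progenitors and 9.21-fold (5.67–15.9) lower than the glia. With inclusive gates, where every *Neurog1*-positive cell counted as a progenitor and every *Sox10*-positive cell as glia, *Hes5* was lower in progenitors. The log2 ratio to glia was then -0.40 at E11.5 and -0.55 at E12.5.

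*Hes1* (ENSMUSG00000022528; chromosome 16, 29882134 to 29886643), a related repressor, was found at 41.1 (35.1–47.8) CPM in glia, 63.5 (48.8–81.2) in progenitors, 9.38 (6.01–13.96) in *Neurog1*+*Isl1*+ cells and 31.0 (19.2–47.3) in neurons of E11.5. At E12.5 it was found at 59.9 (54.4–65.9), 44.7 (32.6–59.8), 5.46 (3.29–8.53) and 3.52 (2.21–5.33) CPM. Progenitors exceeded glia at E11.5, and at E12.5 their intervals overlapped. *Neurog1*+*Isl1*+ cells were 6.77-fold (4.17–11.3) and 8.18-fold (4.69–14.8) lower than progenitors. The level in the 64 neurons of E11.5 came from 21 UMIs in 8 cells, of which 1 held 6. The markers of a pericyte list of 6, all 6 of them detected, summed to 158 CPM in these neurons and to 43.5 CPM in the glia, and 3 of the neurons held 2 or more of them. Pericyte-marker cells outside the classes held *Hes1* at 310.2 (259.9–367) CPM at E11.5 and 138 (106–175) at E12.5. Without the 4 neurons that held 2 or more markers of pericytes, endothelium, mesenchyme or myeloid cells, the level was 15.6 CPM, and the log2 ratio to glia went from -0.41 to -1.45. Without the 21 such neurons of E12.5, *Hes1* stood at 1.64 CPM there and *Notch2* at 9.02 CPM.

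*Hey1* (ENSMUSG00000040289; chromosome 3, 8726956 to 8732385), a repressor of the Hairy-related family, was likewise highest in progenitors, although their interval overlapped that of glia at E11.5. Its levels at E11.5 were 37.9 (32.2–44.4) CPM in glia, 53.4 (40.0–69.8) in progenitors, 21.5 (16.2–28.0) in *Neurog1*+*Isl1*+ cells and 17.7 (9.14–30.9) in neurons. At E12.5 they were 35.8 (31.5–40.5), 76.5 (60.3–95.6), 25.6 (20.5–31.5) and 15.2 (12.3–18.6) CPM. The progenitor level of E12.5 was 2.14-fold (1.63–2.77) that of glia. With the inclusive gates, which widen both classes, the log2 ratio was -0.21. The neurons were 2.14-fold (1.19–4.24) and 2.35-fold (1.85–3.01) lower than the glia.

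*Hes6* (ENSMUSG00000067071; chromosome 1, 91339204 to 91342103) belongs to the same gene family, but is known to be raised by proneural factors and to counteract Hes1. It stood at 44.5 (38.3–51.4) CPM in glia, 100.8 (82.0–123) in progenitors, 1406 (1360–1452) in *Neurog1*+*Isl1*+ cells and 671 (610.5–735) in neurons of E11.5. At E12.5 it stood at 36.5 (32.2–41.2), 325 (290.4–362), 1174 (1138–1210) and 641 (621–661) CPM. No neighbouring classes overlapped. After thinning, 82.4% (76.4–87.3) and 83.3% (79.7–86.5) of *Neurog1*+*Isl1*+ cells and 54.7% and 64.3% of neurons held it. Of the myeloid-marker cells, 33.3% held it before thinning. The glia held it in 12.2% (8.97–16.2) and 7.34% (5.86–9.05) of thinned cells. The E12.5 share was no higher than the 9.14% (5.32–14.4) of mesenchymal-marker cells, so that background cannot be told from expression there. Neurons were 15.1-fold (12.7–18.0) above the glia at E11.5. At E12.5 the ratio was 17.6-fold (15.5–19.99), with this limit on the glial level.

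Members more than 2-fold apart between classes were counted among those with at least 50 UMIs in both classes together, with the share of all genes past 2-fold in the same direction given beside each count. Of 7 members compared between progenitors and glia at E11.5, 2 were higher in progenitors (*Hes5* and *Hes6*; 0.895%) and 0 lower (3.62%). At E12.5, 3 of 7 were higher (*Hes5*, *Hes6* and *Hey1*; 1.86%) and 0 lower (8.61%). The members past this fold were thus all *Hes* or *Hey* genes, and *Dll1* was below the UMI minimum in this comparison. Between neurons and glia, 2 of 6 members were higher in neurons at E11.5 (*Jag1* and *Hes6*; 8.48%) and 2 lower (*Notch2* and *Hey1*; 17.6%). At E12.5, 2 of 8 were higher (*Dll3* and *Hes6*; 12.7%) and 4 lower (*Notch2*, *Hes1*, *Hes5* and *Hey1*; 20.6%). Relative to progenitors, neurons had 2 of 6 members higher at E11.5 (*Jag1* and *Hes6*; 9.96%) and 3 lower (*Notch2*, *Hes1* and *Hey1*; 11.54%). At E12.5, 2 of 9 were higher in neurons (*Dll3* and *Jag1*; 15.5%) and 6 lower (*Notch1*, *Notch2*, *Dll1*, *Hes1*, *Hes5* and *Hey1*; 11.55%). The median log2 ratio of the members between neurons and progenitors was -0.97 at the earlier and -1.79 at the later stage, and that of all genes -0.08 and 0.02. Between neurons and glia it was -0.26 and -0.86, and that of all genes -0.14 and -0.13.

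At both stages, *Neurog1*+*Isl1*+ cells were past 2-fold above glia in *Dll1* and *Hes6* and below them in *Notch2* and *Hes1*. The ratios of *Notch1* (1.53 and 1.36), *Jag1* (1.87 and 1.33) and *Hey1* (0.567 and 0.715) stayed within 2-fold. Relative to glia, 2 of 7 members were higher in *Neurog1*+*Isl1*+ cells at E11.5 (*Dll1* and *Hes6*, 7.74%) and 2 lower (*Notch2* and *Hes1*, 13.4%). At E12.5, 3 of 9 were higher (*Dll1*, *Dll3* and *Hes6*; 8.72%) and 3 lower (*Notch2*, *Hes1* and *Hes5*; 18.5%). Relative to progenitors, 1 of 7 was higher at E11.5 (*Hes6*; 8.66%) and 3 lower (*Notch2*, *Hes1* and *Hey1*; 8.03%), and 2 of 9 were higher at E12.5 (*Dll3* and *Hes6*; 9.23%) and 4 lower (*Notch2*, *Hes1*, *Hes5* and *Hey1*; 7.4%). Between neurons and these cells, 0 of 7 members were higher in neurons at E11.5 (3.37%) and 2 lower (*Dll1* and *Hes6*; 3.66%), and 0 of 7 higher at E12.5 (5.06%) and 1 lower (*Dll1*; 3.5%).

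The *Neurog1*+ progenitors of E12.5 were not uniform when split by *Sox10*, the gene of neural crest and glial identity. The 87 cells with *Sox10* (median 7754 UMIs) held *Hes5* at 88.1 (67.5–113) CPM, *Hes1* at 59.7 (43.0–80.7) and *Notch2* at 102.3 (80.1–129), and the 55 cells without it (median 5384 UMIs) held these at 23.1 (9.28–47.5), 9.89 (2.04–28.9) and 39.5 (20.4–69.1). In the opposite direction, *Hes6* stood at 86.7 (66.3–111) CPM with *Sox10* and 877 (774–989) without it. *Dll3* was at 0 UMIs in the 87 cells with *Sox10*, with an interval of up to 4.15% of cells with a UMI (3 counts of the number of cells allow 3.45%), and at 13.2 (3.59–33.8) CPM in those without. Intervals overlapped for *Dll1*, at 11.4 (4.91–22.4) and 39.5 (20.4–69.1) CPM, for *Hey1*, at 89.5 (68.8–115) and 46.1 (25.2–77.4), and for *Notch1*, at 135 (109–165) and 115 (80.3–160.4). Of the 7 *Hes5* UMIs in cells without *Sox10*, 5 came from 1 cell. At E11.5, 7 of the 77 progenitors lacked *Sox10*, with a median of 2906 UMIs, and they are too few to compare.

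**Figure D2:**
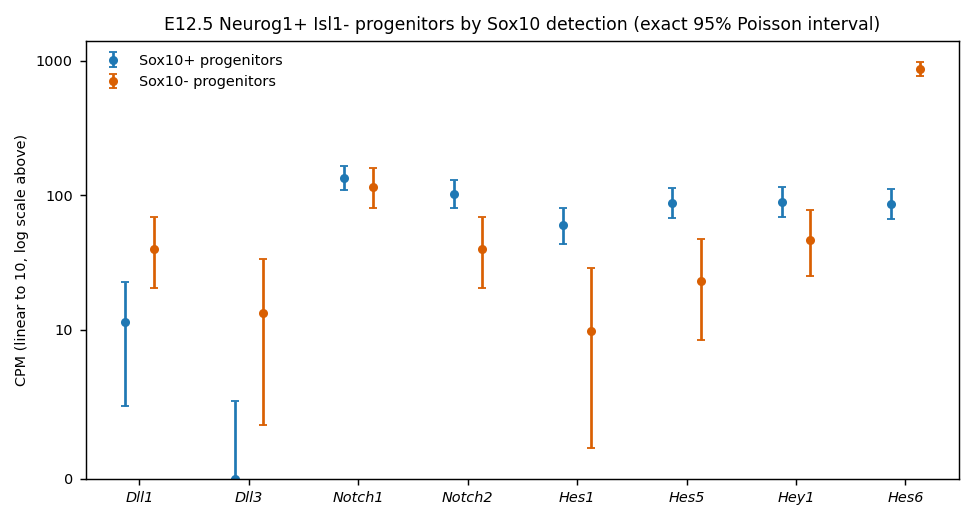
Levels of 8 members in the *Neurog1*+ progenitors of E12.5 with *Sox10* (blue, 87 cells) and without it (orange, 55 cells), in CPM on an axis that is linear to 10 and logarithmic above, with exact 95% Poisson intervals. *Hes1*, *Hes5* and *Notch2* are higher with *Sox10*, and *Hes6* is higher without it (877 against 86.7 CPM).

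Glia were split by the boundary cap genes *Egr2* and *Prss56*, and 155 of the 343 glia of E11.5 and 453 of the 1126 of E12.5 held a UMI of either. *Notch1* was lower in these cells at both stages, at 54.4 against 83.9 CPM at E11.5 and 71.4 against 97.2 CPM at E12.5, ratios of 0.649 (0.507–0.827) and 0.735 (0.619–0.871). *Hes5* was lower at E12.5, at 19.3 against 31.5 CPM with a ratio of 0.615 (0.441–0.846), and at E11.5 its ratio of 0.569 (0.253–1.22) had an interval that held 1. *Hey1* stood at 20.4 against 46.4 CPM at E12.5, which is 2.28-fold (1.69–3.10) lower, and its ratio at E11.5 was 0.812 (0.585–1.13). *Notch2* and *Jag1* had ratios whose intervals held 1 at both stages. *Hes1* did not keep 1 direction, with ratios of 0.638 (0.462–0.876) and 1.18 (0.971–1.44). The cells with a boundary cap gene were deeper at E11.5 (median 13454 against 10900 UMIs) and slightly shallower at E12.5 (5770 against 6014).

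Glia with *Hes5* held more *Notch1*, *Hes1* and *Hey1* than the other glia at E12.5. The 109 glia with a *Hes5* UMI (median 7301 against 5805 UMIs) had *Notch1* at 131 against 80.6 CPM, *Hes1* at 92.7 against 55.4 CPM and *Hey1* at 56.8 against 32.9 CPM, ratios of 1.62 (1.31–1.996), 1.67 (1.30–2.14) and 1.73 (1.24–2.37). The ratios of *Notch2*, *Jag1* and *Hes6*, at 0.817 (0.645–1.02), 0.731 (0.488–1.06) and 0.911 (0.597–1.34), had intervals that held 1, and *Dll1* and *Dll3* were at 0 UMIs in the *Hes5*+ glia against 4 and 9 in the others. At E11.5, with 24 *Hes5*+ glia, the ratio was 1.70 (1.02–2.71) for *Hey1*, 1.35 (0.896–1.96) for *Notch1* and 1.39 (0.812–2.24) for *Hes1*. *Dll1* had 1 UMI in these 24 cells against 10 in the other glia, and *Dll3* 0 against 1, with ratio intervals that held 1. Glia with 2 or more of 6 cell cycle genes had *Hes5* at 31.6 against 17.5 CPM at E12.5, a ratio of 1.80 (1.28–2.58), and at 7.76 against 7.99 CPM at E11.5, where 56 glia had fewer. Cycling cells are also deeper (median 7340 against 4779 UMIs at E12.5). After thinning they made up 46.6% and 37.2% of glia, 49.4% and 39.6% of progenitors, 28.9% and 19.3% of *Neurog1*+*Isl1*+ cells, and 10.9% and 4.18% of neurons.

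The co-detection of ligand and target in single cells was counted without thinning for 12 pairs. Of 688 cells of the 4 classes at E11.5 and 2692 at E12.5, *Dll1* and *Hes1* were found together in 11 and 5, where the product of their separate shares gives 20.2 and 17.4. *Dll1* and *Hes5* were found together in 5 and 5 cells, with products of 5.43 and 8.76. *Dll3* and *Hes5* shared 1 and 1 cells, with products of 3.11 and 9.62, and *Dll3* and *Hes1* 1 and 5 cells, with products of 11.6 and 19.1. The pooled counts of these 4 pairs of *Dll1* or *Dll3* with *Hes1* or *Hes5* were below the product at E12.5, and for *Dll1* and *Hes5* nearly equal to it at E11.5. For the ligand *Jag1*, the counts with *Hes1* were 36 and 63 cells against products of 44.0 and 83.7, and those with *Hey1* 51 and 108 against 51.3 and 101.6. *Hes6* was found with the ligands instead, with *Dll1* in 78 and 139 cells (products 54.3 and 83.7) and with *Dll3* in 50 and 143 (31.1 and 91.9). The receptor *Notch1* was found with *Hes5* in 31 and 99 cells, with products of 22.9 and 65.2. *Hes1* and *Hes5* were found together in 21 and 54 cells, with products of 9.52 and 20.04, and *Hes5* and *Hes6* in 20 and 51, with products of 25.6 and 96.6. Taking the shares within 5 groups of cells of like depth moved the product for *Dll1* and *Hes1* to 21.9 and 18.4. After thinning to 2000 UMIs, *Dll1* was found with *Hes1* in 0 and 0 cells, against products of 1.42 and 2.33, and with *Hes5* in 0 and 0, against 0.262 and 1.15, so that at equal depth these pairs are too rare to read. *Dll1* and *Hes6* were again found together above the product, in 15 and 35 cells against 7.41 and 19.4, as did *Hes1* and *Hes5* at E12.5, in 10 against 3.29, where at E11.5 1 cell was left.

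Pooled counts combine classes that differ in both genes, so the pairs were also read within a class. In progenitors, *Dll1* and *Hes1* met in 2 of 77 cells at E11.5 (product 6.23) and 1 of 142 at E12.5 (3.06), and *Dll1* and *Hes5* in 2 and 2 (2.53 and 2.96). *Dll1* and *Hes6* met in 11 and 14 progenitors, with products of 7.597 and 7.5. With 15 *Dll1*+ progenitors at E11.5 and 15 at E12.5, these counts are small. In *Neurog1*+*Isl1*+ cells, *Dll1* and *Hes1* met in 6 and 4 cells, with products of 3.63 and 3.08. Shares within groups of like depth gave 5.24 and 3.61, close to these counts. The shortfall of the pooled count was thus not seen there. *Dll1* and *Hes6* met in 57 and 90 of these cells, close to the products of 54.5 and 87.0, where 95.6% of cells held *Hes6* at both stages. In that class, *Dll1* and *Dll3* met in 3 of 204 cells at E11.5, with a product of 10.6, and in 8 of 502 at E12.5, with a product of 9.24.

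Cells were also placed by any ligand of *Dll1* and *Dll3* and any target of *Hes1* and *Hes5*. A target without a ligand was found in 32.9% (28.0–38.2) and 29.7% (27.0–32.4) of glia, and a ligand without a target in 2.62% and 0.799%. In *Neurog1*+*Isl1*+ cells, a ligand without a target was found in 42.2% (35.3–49.3) and 24.9% (21.2–28.9), and a target without a ligand in 4.41% and 3.39%. Progenitors lay between these for a ligand alone, at 16.9% and 10.6%. A target alone was found in 40.3% (29.2–52.1) and 31.7% (24.1–40.0) of them, above the glia but with overlapping intervals. Both were found in 5 of 77 and 3 of 142 progenitors (products 8.42 and 6.08). Of the 922 neurons of E12.5, 123 held a ligand, 27 a target and 0 both. The interval of that 0% (0–0.399) holds the 0.391% of the product. These unthinned shares are not compared between the stages, which differ in depth.

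**Figure D3:**
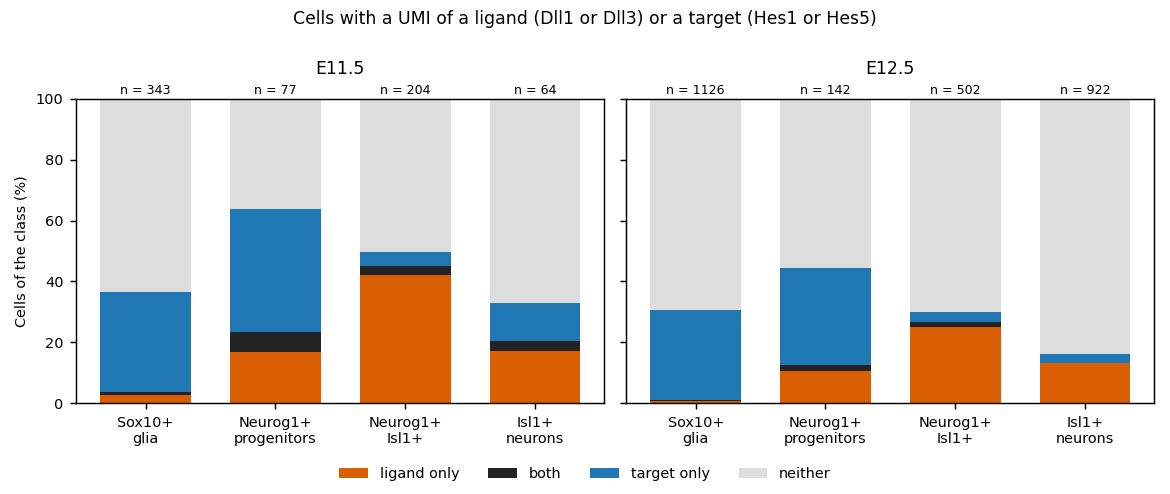
Percent of cells of each class (vertical axis) with a UMI of a ligand only (*Dll1* or *Dll3*, orange), of a target only (*Hes1* or *Hes5*, blue), of both (black) or of neither (grey), at E11.5 (left) and E12.5 (right), with the number of cells above each bar. Targets prevail in glia and ligands in *Neurog1*+*Isl1*+ cells, and both occurred together in 0 of 922 neurons of E12.5.

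All *Neurog1*-positive cells, with or without *Isl1*, were then split by *Dll1*, which was found in 72 cells and not in 209 at E11.5, and in 106 and not in 538 at E12.5. The *Dll1*+ cells held more *Neurog1*, at 379 against 238 CPM and 299 against 227 CPM, ratios of 1.59 (1.40–1.81) and 1.32 (1.14–1.52). The CPM of *Isl1* was lower in them at both stages, with ratios of 0.618 (0.559–0.682) and 0.589 (0.529–0.654). That of *Neurod1*, a later neurogenic factor, was lower as well, with 0.898 (0.812–0.992) and 0.652 (0.583–0.728). After thinning, 56.9% of *Dll1*+ and 57.4% of the other cells held *Isl1* at E11.5, and 52.8% and 61.0% at E12.5. For *Neurod1* these shares were 51.4% and 51.2%, and 49.1% and 60.6%. Before thinning, more of the *Dll1*+ cells held each gene (*Isl1* in 79.2% against 70.3% and in 85.8% against 76.4%). Among the members, *Hes6* was higher at 1480 against 863 CPM and 1324 against 904 CPM, ratios of 1.71 (1.60–1.83) and 1.47 (1.37–1.57). *Notch1* was higher as well, at 158 against 89.0 CPM and 156 against 112 CPM, ratios of 1.78 (1.44–2.18) and 1.39 (1.13–1.70). *Hes1* was lower at E11.5, at 12.7 against 29.3 CPM and a ratio of 0.434 (0.221–0.788), while its ratio of 0.613 (0.252–1.29) at E12.5 had an interval that held 1. This split pools 2 classes, progenitors and *Neurog1*+*Isl1*+ cells, with *Hes1* at 63.5 and 9.38 CPM at E11.5. Within progenitors of E11.5, 2 of 15 *Dll1*+ cells held *Hes1* (13.3%, unthinned), against 41.6% of the class. Within *Neurog1*+*Isl1*+ cells, 6 of 57 *Dll1*+ cells held *Hes1* (10.5%, 3.96–21.5), an interval that holds the 6.37% of that class. *Dll3* had 3 UMIs in *Dll1*+ against 45 in *Dll1*-negative cells at E11.5, a ratio of 0.165 (0.0327–0.513), and 12 against 53 UMIs at E12.5, a ratio of 0.971 (0.472–1.84), and the difference between the stages was not tested. *Dll1*+ cells were deeper than the others, with medians of 13962 against 11935 UMIs and 7249.5 against 6429.

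**Figure D4:**
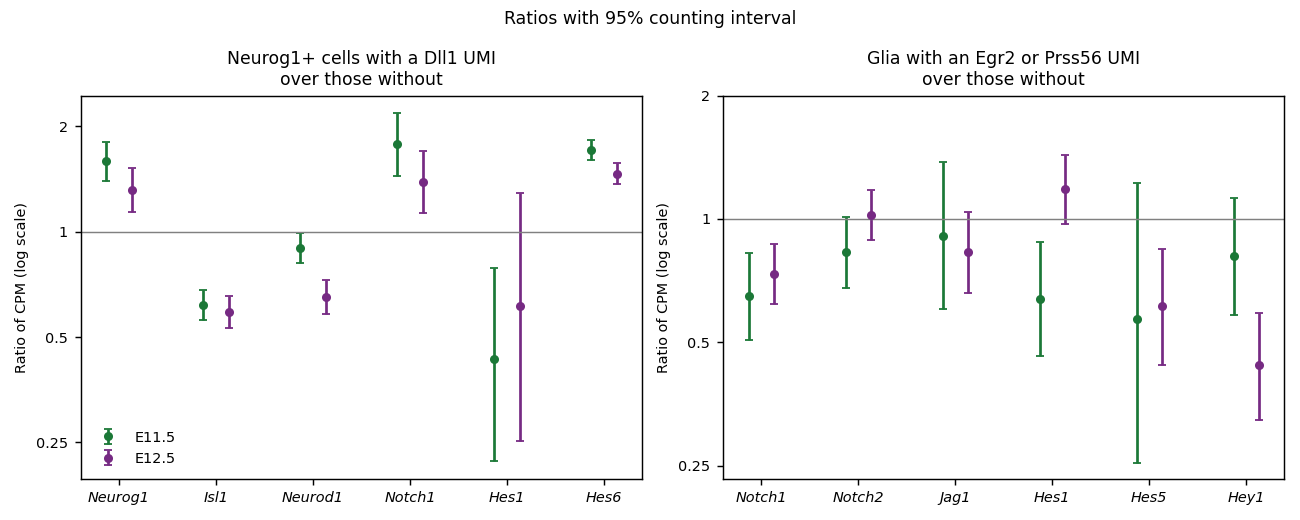
Ratio of CPM (logarithmic axis) with 95% counting intervals at E11.5 (green) and E12.5 (purple), between *Neurog1*-positive cells with and without a *Dll1* UMI (left) and between glia with and without a UMI of *Egr2* or *Prss56* (right). *Neurog1*, *Notch1* and *Hes6* lie above 1 and *Isl1* below 1 in the left panel at both stages, and *Notch1* lies below 1 in the right panel at both stages (0.649 and 0.735).

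Between the stages, members past 2-fold within a class were counted in the same way. In glia 1 of 7 members compared was higher at E12.5 (6.42% of all genes compared) and 0 lower (1.1%), and in progenitors 2 of 7 were higher (3.13%) and 0 lower (1.75%). In *Neurog1*+*Isl1*+ cells 0 of 7 were higher (3.06%) or lower (1.16%), and in neurons 0 of 6 (6.55% and 2.85%). *Hes5* was the member in glia, 3.41-fold (2.34–5.13) higher at E12.5, and was also past 2-fold in progenitors, at 3.24-fold (1.96–5.56). *Hes6* was 3.22-fold (2.57–4.07) higher in the progenitors of E12.5, of which 55 of 142 lacked *Sox10* against 7 of 77 at E11.5. Within the progenitors that held *Sox10*, *Hes6* stood at 90.8 (72.7–112) and 86.7 (66.3–111) CPM, and *Hes5* at 22.2 (13.7–33.9) and 88.1 (67.5–113) CPM. *Jag1* in glia was 1.96-fold (1.56–2.47) higher at E12.5. *Hes1* in neurons, below the UMI minimum with 22 against 21 UMIs, was 8.79-fold (4.60–16.8) lower at E12.5. Without the neurons that held 2 or more markers of another cell type, it stood at 15.6 CPM at E11.5 and 1.64 CPM at E12.5. The cause of the difference was not tested.

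A list of 40 further pathway genes was compared in the same way. The percentages are again the shares of all genes past 2-fold in that direction. Between neurons and glia, 6 of 28 genes compared were higher (8.48%) and 7 lower (17.6%) at E11.5, and 6 of 35 higher (12.7%) and 11 lower (20.6%) at E12.5. The median log2 ratio of the list was 0.02 and -0.15. Between progenitors and glia, 1 of 27 was higher (0.895%) and 1 lower (3.62%) at E11.5, and 3 of 33 higher (1.86%) and 3 lower (8.61%) at E12.5. Between neurons and progenitors, 4 of 18 were higher (9.96%) and 3 lower (11.54%) at E11.5, and 6 of 31 higher (15.5%) and 7 lower (11.55%) at E12.5. The targets *Hes2* (0 UMIs in kept cells at both stages), *Hes3* (0 and 2) and *Hes7* (6 and 13) were too rare to compare.

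Further targets and the receptor *Notch3* lay on the side of *Notch2* and *Hes5*. *Heyl*, a *Hey* family target, stood at 166 and 127 CPM in glia, 226 and 165 in progenitors, 54.3 and 24.1 in *Neurog1*+*Isl1*+ cells and 35.4 and 8.48 in neurons at E11.5 and E12.5. *Hey2*, its relative, stood at 87.0 and 127 CPM in glia, 86.6 and 75.5 in progenitors, 9.77 and 12.1 in *Neurog1*+*Isl1*+ cells and 16.2 and 9.12 in neurons. Relative to glia, neurons were lower 4.68-fold (3.12–7.35) and 15.0-fold (11.4–20.2) for *Heyl*, and 5.37-fold (2.96–10.8) and 13.9-fold (10.6–18.5) for *Hey2*. *Notch3* was 2.80-fold (1.44–6.25) and 3.76-fold (2.74–5.27) lower in neurons, and the sheddase gene *Adam17* 2.18-fold (1.07–5.19) and 2.40-fold (1.95–2.98). *Notch3* also belongs to the list of pericyte markers. The coactivators of the Mastermind family split, with *Maml2* 3.04-fold (2.35–4.01) and 4.21-fold (3.79–4.67) lower in neurons than in glia, and *Maml3* 2.77-fold (2.17–3.52) and 3.05-fold (2.73–3.41) higher.

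Higher in neurons than in glia, as *Hes6* was, were a modifier of Notch and a relative of an inhibitor. *Mfng* encodes Manic fringe, which adds sugars to Notch and alters its response to ligands. It stood at 7.78 and 10.8 CPM in glia, 24.2 and 52.6 in progenitors, 183 and 205 in *Neurog1*+*Isl1*+ cells and 122 and 162 in neurons. Of the list, it was the gene more than 2-fold higher in progenitors than in glia at both stages, at 3.11-fold (1.75–5.45) and 4.87-fold (3.37–6.999). *Numbl*, a relative of the Notch inhibitor Numb, stood at 9.96 and 14.6 CPM in glia and at 103 and 96.6 in neurons, 10.4-fold (6.95–15.6) and 6.62-fold (5.37–8.23) higher.

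**Figure D5:**
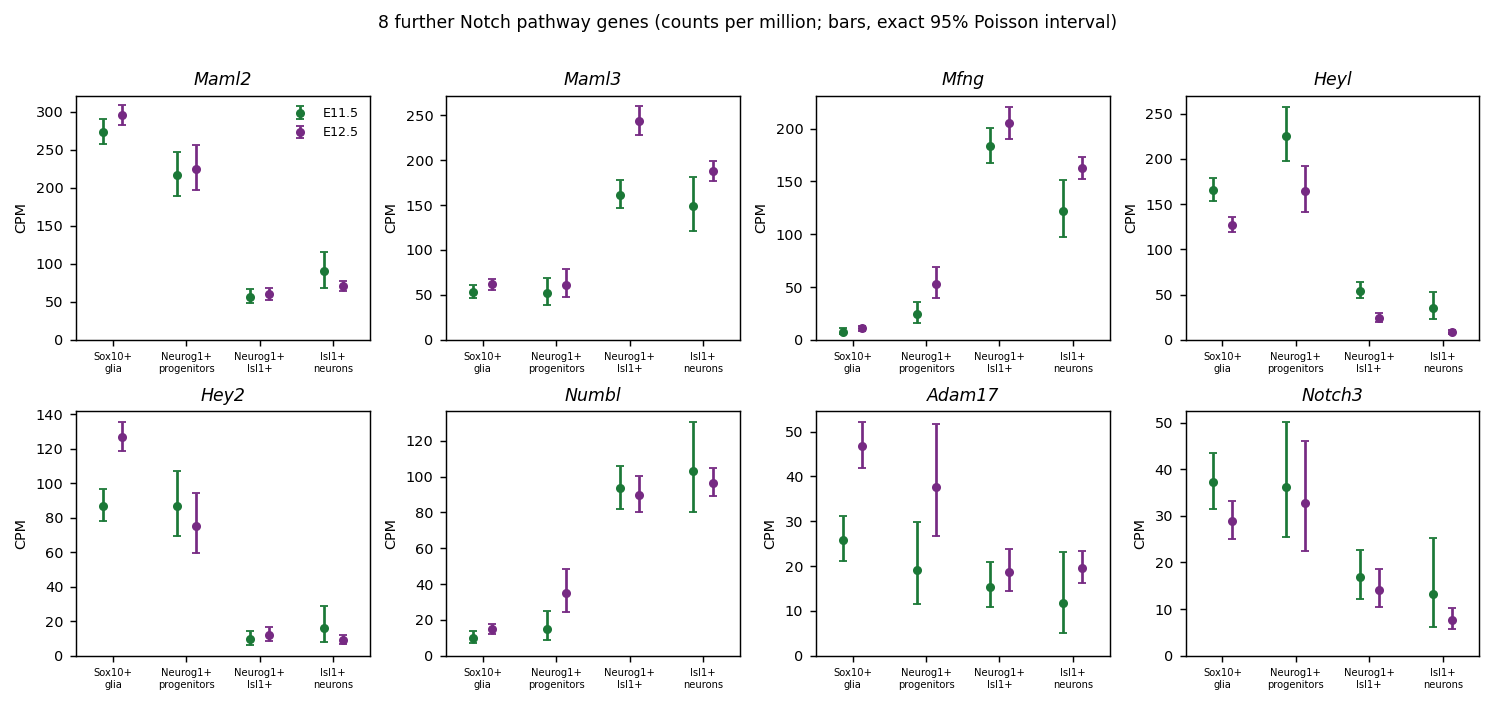
Levels of 8 further pathway genes in the 4 classes, in CPM (vertical axes, each from 0), at E11.5 (green) and E12.5 (purple), with exact 95% Poisson intervals. *Maml2*, *Heyl*, *Hey2*, *Adam17* and *Notch3* are lower in neurons than in glia, and *Maml3*, *Mfng* and *Numbl* are higher.

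The genes with the most similar profile were sought over 10 points, the 4 classes of each stage with progenitors split by *Sox10*, among 7959 or 7960 genes. For *Dll1* they were *Bcl11b* (r = 0.97), *Plaa* (r = 0.96) and *Hnrnpa1* (r = 0.96). For *Hes5* they were *Mpc2* (r = 0.95), *Zc3h14* (r = 0.94) and *Pcdh7* (r = 0.94), and for *Hes6* *Bcl7a* (r = 0.99), *Rcor2* (r = 0.99) and *Plagl1* (r = 0.98). These are Pearson correlations of log2(CPM + 1) given as a description. The points share 2 libraries, and the *Sox10*-negative progenitors of E11.5 hold only 7 cells with 45784 UMIs.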

How the data were processed

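The authors sequenced 10x 3′ libraries of sorted cells and deposited raw counts of UMIs per gene and barcode. These were made with Cell Ranger (7.0 in the submitters' processing notes, 7.0.1 in the matrix headers) on mm39. They hold 1431 and 3762 barcodes, before the cell filters of the methods. Following the methods, cells with over 10% mitochondrial UMIs, with under 2000 (E11.5) or 1000 (E12.5) UMIs, or with a Scrublet score of 0.2 or more (7 and 67 cells; scanpy 1.11.5) were removed, leaving 9541971 and 22456846 UMIs. The later step of the methods that extracts cells of the boundary cap lineage was not repeated. All sorted cells that passed these filters entered the gates. Classes, CPM, ratios with exact intervals (scipy 1.17.1), shares thinned to 2000 UMIs (1 draw; 36, 3, 10 and 36 cells of the 4 classes of E12.5 were too shallow) and co-detection were computed from the deposited counts. The ratio was tested on simulated data for E12.5 progenitors and glia: 96.2% of intervals held the true ratio over 10013 genes, and 100% of 199 changed genes had the right direction. The simulated counts came from a Poisson model, which the intervals assume, so this checks the computation and not clustering of UMIs within cells. Positions are from GENCODE mouse M39. The members and lists were chosen with earlier results of these data known. Besides all members, genes of the 40-gene list were named if past 2-fold in 1 direction at both stages, at most 8 by summed UMIs, and for likeness the 3 genes of highest r. The comparisons with *Neurog1*+*Isl1*+ cells, the splits by *Dll1* and *Hes5*, the background cells and the removal of cells with 2 markers of another type were added after seeing the data. Alternatives to the gates, filters, scaling and thinning were run. No p-value was computed.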

Additional observations from a re-analysis of the deposited data

How the results depend on the processing

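Inclusive gates count every cell with *Sox10* as glia, with *Neurog1* as a progenitor and with *Isl1* as a neuron, so that the classes overlap. With these gates, members past 2-fold in either direction went from 2 to 4 (progenitors against glia, E11.5) and from 3 to 5 (E12.5). Between neurons and progenitors they went from 5 to 0 (E11.5) and from 8 to 2 (E12.5). The wider list went from 2 to 7 (progenitors against glia, E11.5), from 13 to 8 (neurons against glia, E11.5), and from 7 and 13 to 1 and 1 (neurons against progenitors). The log2 ratios of progenitors over glia turned to -0.40 and -0.55 for *Hes5* and -0.21 for *Hey1* (E12.5). Requiring 2 UMIs of a gate gene gave 2 members (neurons against progenitors, E11.5) and 0 and 11 genes of the list (progenitors against glia). A gene minimum of 20 UMIs gave 4 genes of the list (progenitors against glia, E11.5), and 200 UMIs, by which fewer members can be compared, 1, 2 and 1 members at E11.5 (progenitors against glia, neurons against glia, neurons against progenitors) and 2 at E12.5 (neurons against progenitors). Dividing by the median ratio of all genes gave 1 gene of the list (progenitors against glia, E11.5). The share of all genes past 2-fold was not taken anew under any of these settings. These counts therefore show how far the calls depend on the setting and are not a result about the members. Keeping doublets moved 0 of 247 values beyond their intervals, and leaving out cells with 2 markers of another type 10 of 247, all of *Hes1* or *Notch2* in neurons. Inclusive gates moved 109 and reversed 3 of 247 values and 2 UMIs of a gate gene 73 of 238. Without thinning 60 of 80 shares moved, with 1000 UMIs 43, and with 2 UMIs of a member 68. Thinning moved 8 of 8 co-detection values beyond their intervals, and 2 UMIs of the ligand 4 of 8. Another draw moved 0. Where not stated, the cause was not tested. No paired analysis was possible because each stage has 1 library. Depth limits *Dll1* and *Dll3* in glia, with 1 to 11 UMIs.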

Other observations

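Pathway members also differed among the cells that held none of *Sox10*, *Neurog1* and *Isl1*. In those with 2 or more pericyte markers (51 at E11.5 and 73 at E12.5), *Jag1* stood at 123 (91.9–160.5) and 114 (85.9–149) CPM and *Hes1* at 310.2 and 138 CPM, while *Hes5* was at 0 and 2.12 CPM and *Dll1* at 0 and 2.12 CPM. *Hey1* had 24 UMIs at E11.5, or 55.6 (35.6–82.7) CPM, and 1 UMI at E12.5, or 2.12 (0.0536–11.8) CPM. *Notch2* stood at 13.9 (5.10–30.2) and 65.6 (44.6–93.1) CPM. These differences were not tested, and stage, litter and library cannot be told apart.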
